A study of Homo sapiens with 5 samples.

Results

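The histone genes of TF-1 cells were followed between *MTSS1* knockout and control pools. They were chosen by name alone, as the protein-coding genes whose symbol begins with H1-, H2A, H2B, H3-, H3C or H4C in GENCODE release 44, the annotation used here for gene names. The annotation holds 93 such genes, and 67 of them are among the 27328 genes of the count table. The other 26 were not analysed here. Of the 67 genes, 57 were classed as replication-dependent, because their older symbol begins with HIST1, HIST2, HIST3 or HIST4, and 10 as histone variants. Enough counts for a test were found for 42 histone genes, 33 replication-dependent and 9 variant, among 14391 genes tested in all.

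TF-1 is a human acute myeloid leukemia (AML) cell line. RNA was sequenced from 5 libraries, and every library represents 4 pooled single-cell clones that carry Cas9 and an sgRNA. The 2 control libraries, from sgCtrl pools 1 and 2, carry an sgRNA against *renilla luciferase*, which human cells lack. The 3 knockout libraries come from pools named sgMTSS1_1, sgMTSS1_2 and sgMTSS1_3 after their sgRNAs, so that each knockout replicate has its own sgRNA against *MTSS1*, and the loss of the protein in them was checked by immunoblot in the study. The authors left out sgCtrl pool 3 and the sgMTSS1_4 pool after an outlier test, and these were not analysed here. With pools of few clones, differences between clones and differences between sgRNAs cannot be told apart, and p-values measure the spread between these pools.

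Histones are the proteins around which DNA is wound. H2A, H2B, H3 and H4 form the core of the nucleosome, and H1 is the linker histone that binds the DNA between cores. Replication-dependent histone genes lie in clusters, lack introns in most cases, and are transcribed when DNA is replicated in S phase. Their mRNAs are the known exception among mRNAs of animal cells, since they end in a conserved stem-loop and not in a poly(A) tail. The stem-loop is bound by *SLBP*, the stem-loop binding protein, and the mRNA is cut downstream of it with the help of the U7 snRNP. Variant histone genes stand alone in the genome, mostly give polyadenylated mRNAs, and are expressed also outside S phase. The libraries were made with a QuantSeq 3′ kit, whose cDNA is primed with oligo-dT. Counts of replication-dependent histone genes in such libraries therefore come from molecules that carry a poly(A) stretch or were primed in another way, and less captured mRNA cannot be told apart from less mRNA or from fewer cells in S phase.

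The stem-loop was searched in the 300 genomic bases after the stop codon, on the sense strand, as the 16 letters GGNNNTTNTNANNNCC in which the outer 6 letters on each side pair and leave a loop of 4 bases. It was found in 56 of the 57 replication-dependent genes of the table, which is 98.2%, and in 1 of the 10 variant genes. Of 14789 other protein-coding genes of the table, 2 held it (0.0135%). Its first base lay 22 to 62 bases after the stop codon, with a median of 34.5 bases. Among the tested replication-dependent genes, 32 of 33 held it, and *H2AC11* did not. The sequences below are those of the replication-dependent genes whose values are described most closely and of *H2AX*, the variant with a stem-loop. Capitals mark the stem-loop, with 5 bases of genome on either side, and positions are those of the printed bases in GRCh38.
H1-2: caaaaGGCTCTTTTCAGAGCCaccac
H1-4: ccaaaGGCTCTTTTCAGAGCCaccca
H2AC14: acaaaGGCTCTTTTCAGAGCCacttc
H2AC20: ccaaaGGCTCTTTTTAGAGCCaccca
H2BC4: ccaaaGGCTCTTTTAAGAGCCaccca
H2BC7: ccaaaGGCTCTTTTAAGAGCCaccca
H2BC14: ccaaaGGCTCTTTTCAGAGCCgtcca
H3C3: gaaaaGGCTCTTTTCAGAGCCactca
H3C6: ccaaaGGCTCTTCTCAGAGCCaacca
H4C3: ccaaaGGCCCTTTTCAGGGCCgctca
H2AX: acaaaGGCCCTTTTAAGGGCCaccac

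On the plus strand, these lie at chr6:26157090-26157115 (*H1-4*), chr1:149887386-149887411 (*H2AC20*), chr6:26199963-26199988 (*H2BC7*), chr6:27815464-27815489 (*H2BC14*), chr6:26045844-26045869 (*H3C3*), chr6:26225591-26225616 (*H3C6*) and chr6:26104312-26104337 (*H4C3*). On the minus strand, they lie at chr6:26055739-26055764 (*H1-2*), chr6:27814303-27814328 (*H2AC14*), chr6:26123467-26123492 (*H2BC4*) and chr11:119094893-119094918 (*H2AX*). The stem set the H4 genes apart. GGCCCT opened the stem in 13 of 13 H4 genes and in *H2AX*, and GGCTCT opened it in the other 43 genes, with a matching change on the far side. The sequence printed for *H2BC4* is that of *H2BC7*, base for base. The polyadenylation signal AATAAA was present in the same window in 5 of the 33 tested replication-dependent genes (15.2%), namely *H1-2*, *H2BC5*, *H4C3*, *H4C11* and *H4C12*. It was present in 2 of the 9 tested variant genes (22.2%) and in 26.3% of all protein-coding genes of the table.

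Total counts were 2849979 and 3408827 in the control libraries and 5442639 to 8854899 in the knockout libraries, with every knockout library deeper than both controls, and in unscaled counts depth cannot be told apart from condition. Levels are given as CPM, the counts of a gene relative to the library total after scaling with TMM factors, and 3 counts correspond to 0.387 to 0.932 CPM in the 5 libraries. The level of *MTSS1* itself was 203 CPM in control pool 1, 87.4 CPM in control pool 2, and 103, 138 and 49.6 CPM in the knockout pools in the order of their sgRNA numbers, which is kept below, with overlapping groups (log2-fold change -0.58, SE 0.47, adjusted p = 0.494 in edgeR), so that its mRNA level does not check the labels. Of 13 markers of TF-1 cells, all were tested and 0 were differentially expressed in edgeR, DESeq2 or limma-voom (1 at an unadjusted p under 0.05). *CD34*, a marker of hematopoietic progenitors by which the line is known, had 112 to 343 CPM. Among markers of lymphoid, stromal and epithelial cells, *COL1A1*, *EPCAM* and *ALB* stayed at 0 to 0.692 CPM, and *KRT18* had 53.1 to 137 CPM.

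Differential expression was called at an adjusted p under 0.05 together with a log2-fold change beyond 1 in either direction, with edgeR's quasi-likelihood test and Benjamini-Hochberg adjustment over all tested genes. Over all 14391 genes, 5.18% were called, 4.17% higher and 1.01% lower in the knockout. Among the 33 tested replication-dependent histone genes, 2 were lower, which is 6.06%, and 0 were higher. These were *H2BC14* and *H2BC7*. At an unadjusted p under 0.05, 9 were lower and 1 was higher, against 9.23% and 14.1% of all genes, and limma-voom likewise called 0 higher. DESeq2 called 3 lower, *H1-4* being the third, beside 2.35% of all genes, and 0 higher, beside 7.08%. Among the 9 tested variant genes, 1 was higher (*H2AZ1*) and 1 was lower (*H2AJ*).

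The fitted log2-fold changes of the replication-dependent genes had a median of -0.68, beside -0.03 over all tested genes, and ranged from -2.95 to 2.46. Their sign was negative in 26 of 33 genes, or 78.8%, beside 51.7% of all genes. All 3 knockout pools lay below both control pools in 9 of the 33 genes (27.3%, beside 19.3% of all genes) and above both in 1 (beside 22.2%). Of these genes, *H2BC14* and *H2AC4* (below) passed the filter on low counts only through the controls. *H3C6* (above) passed it only through the knockout libraries. The variant genes had a median of 0.42, with 6 of 9 positive, beside 48.3% of all genes. The median of the replication-dependent genes was -1.43 without the sgMTSS1_1 pool, where 27 of them could be tested, and -0.39 without control pool 1. That of the variant genes was 0.15 without control pool 2.

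**Figure D1:**
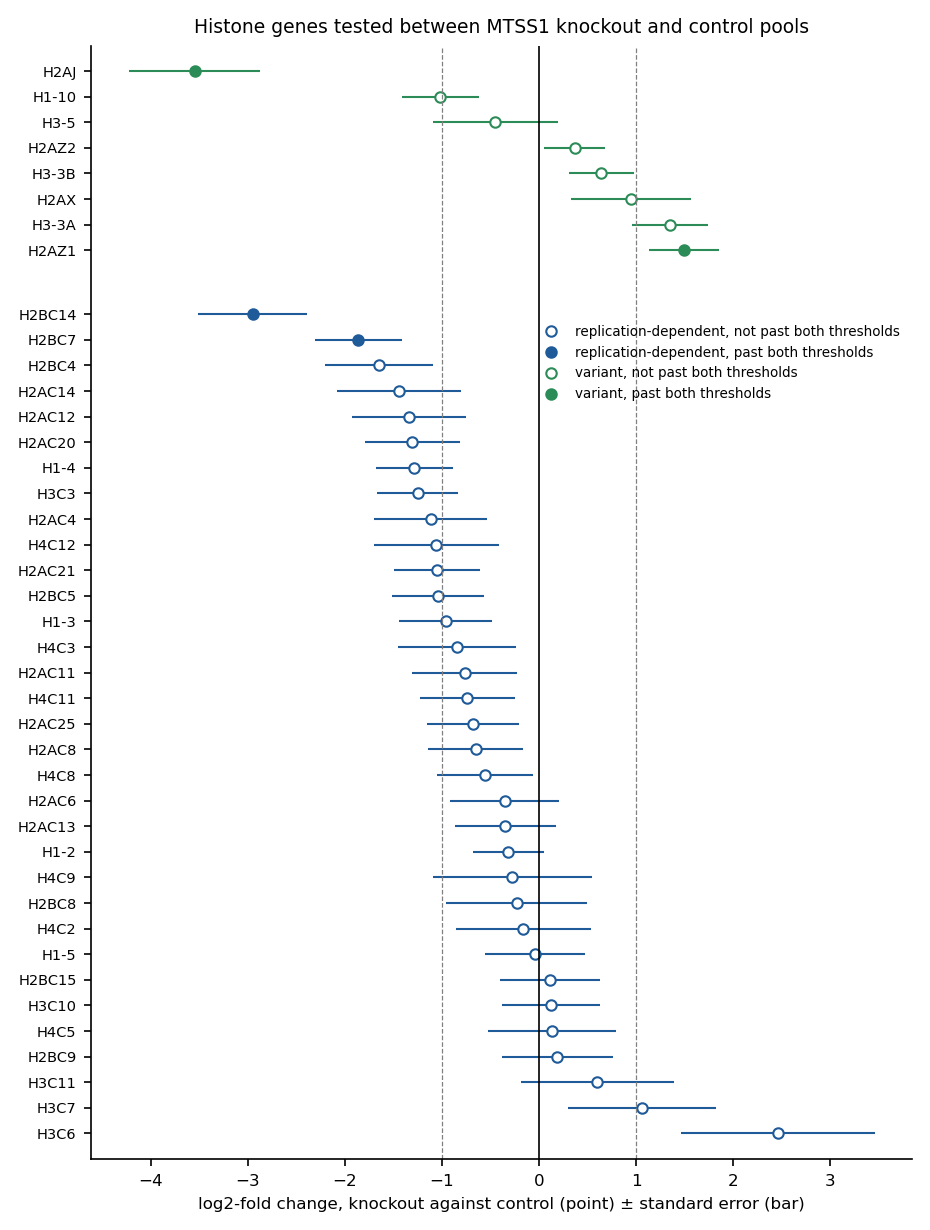
Log2-fold change of 41 of the tested histone genes, knockout against control (points), with its standard error (bars), for variant genes (top, green) and replication-dependent genes (bottom, blue). Filled points are past both thresholds, and dashed lines mark the thresholds of -1 and 1. Of the 33 replication-dependent genes, 26 lie left of 0, and 5 of the 8 variant genes drawn lie right of it.

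The largest fall among replication-dependent genes was that of *H2BC14*, which encodes an H2B protein (chr6:27815022-27815489, plus strand). Its level was 24.5 CPM in control pool 1 and 6.52 CPM in control pool 2, against 2.06, 2.15 and 1.73 CPM in the knockout pools. With 16, 12 and 10 counts in the knockout libraries, *H2BC14* passed the filter on low counts only through the controls. It was still called where at least 10 counts were required in every library. The 3 knockout pools were close together and below both controls, while the controls differed widely from each other (15.5 ± 12.7 CPM, SD, n = 2, against 1.98 ± 0.223, n = 3). The log2-fold change was -2.95 (SE 0.56, adjusted p = 0.022), and without control pool 1 it was -1.69, no longer past the threshold.

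*H2BC7*, another H2B gene (chr6:26199516-26199988, plus strand), had 16.8 and 19.0 CPM in the control pools and 7.61, 4.13 and 2.77 CPM in the knockout pools. Here the controls were alike and every knockout pool lay well below them (17.9 ± 1.54 CPM, SD, n = 2, against 4.83 ± 2.50, n = 3). The log2-fold change was -1.86 (SE 0.45, adjusted p = 0.0457), and the gene lies within a longer annotated gene on the same strand. The call of *H2BC14* and that of *H2BC7* was each lost when any 1 knockout pool was left out, and *H2BC7* was also past the threshold without control pool 1 but not without control pool 2.

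The next genes by size among those with no overlap between groups did not pass the adjusted threshold. *H2BC4* had 20.5 and 9.18 CPM in the controls and 7.73, 4.13 and 2.07 CPM in the knockout pools (log2-fold change -1.65, SE 0.56, adjusted p = 0.117). Its annotated span, chr6:26086317-26123926 on the minus strand, also covers *H4C3*. All 50-base words of its canonical transcript also occur in other annotated genes, overlapping genes included, so that its value is uncertain. *H2AC20*, an H2A gene on chromosome 1 (chr1:149886918-149887411, plus strand), had 38.5 and 23.1 CPM against 21.5, 8.07 and 7.44 CPM (log2-fold change -1.30, SE 0.49, adjusted p = 0.15). In it the sgMTSS1_1 pool lay just below the lower control, and the other two knockout pools lay at less than 10 CPM.

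*H1-4*, which encodes a linker histone (chr6:26156329-26157115, plus strand), had 223 and 86.2 CPM in the controls and 75.7, 63.0 and 51.7 CPM in the knockout pools. The groups did not overlap, but the spread between the controls was wide (155 ± 96.8 CPM, SD, n = 2, against 63.4 ± 12, n = 3). Its log2-fold change of -1.28 (SE 0.40) had an adjusted p of 0.0941 in edgeR and of 0.0406 in DESeq2. Without control pool 1 it was -0.43 (adjusted p = 0.415), and without control pool 2 it was -1.79 and past the threshold (adjusted p = 0.0157). *H3C3*, an H3 gene (chr6:26045384-26045869, plus strand), had 23.3 and 13.6 CPM against 10.7, 7.18 and 5.19 CPM (log2-fold change -1.25, SE 0.42, adjusted p = 0.114). Without control pool 1, the values of *H2BC4*, *H2AC20* and *H3C3* were -0.94, -0.87 and -0.80. *H3C3* was the only H3 gene of the 5 tested whose fitted value was negative, and 1 of 2 such genes with library size alone as scaling.

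*H4C3*, an H4 gene (chr6:26103933-26104337, plus strand), held most of the counts of the class. It had 5121 and 4549 CPM in the control pools, 5356 CPM in the sgMTSS1_1 pool, and 1606 and 1137 CPM in the sgMTSS1_2 and sgMTSS1_3 pools. In these TMM-scaled levels, the sgMTSS1_1 pool lay above both controls and the sgMTSS1_2 and sgMTSS1_3 pools lay far below them. As a share of all counts, the sgMTSS1_1 pool lay between the controls (0.469% against 0.578% and 0.45%), so that its place depended on the scaling. The groups did not differ beyond the spread of the pools (4835 ± 405 CPM, SD, n = 2, against 2700 ± 2312, n = 3, with log2-fold change -0.84, SE 0.61, adjusted p = 0.443). Without the sgMTSS1_1 pool the log2-fold change was -1.82 (adjusted p = 0.0905). The span of *H4C3* lies within that of *H2BC4* on the other strand. Of the 356 50-base words of its canonical transcript, 0 occur in another annotated gene. Whether reads of *H2BC4* were counted for *H4C3* depends on the annotation, spans and strand used in counting, which are not given in the sources used here.

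The same order of pools was seen in linker histones. *H1-2* (chr6:26055740-26056470, minus strand) had 630 and 610 CPM in the controls, 709 CPM in the sgMTSS1_1 pool, and 428 and 356 CPM in the other two (log2-fold change -0.32, SE 0.37, adjusted p = 0.652). *H1-5* (chr6:27866792-27867588, minus strand) had 126 and 101 CPM, then 203 CPM, then 74.3 and 53.1 CPM (log2-fold change -0.04, SE 0.51, adjusted p = 0.973), and its sign changed with the processing. *H1-3* (chr6:26234212-26234987, minus strand) had 93.8 and 36.7 CPM in the controls and 52.3, 26.9 and 21.1 CPM in the knockout pools (log2-fold change -0.96, SE 0.48, adjusted p = 0.265), and without control pool 1 its log2-fold change was -0.12. In each of these 3 genes the sgMTSS1_1 pool lay within or above the controls and the other two knockout pools lay below both.

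*H2AC14* (chr6:27814302-27814777, minus strand), an H2A gene, is the divergent neighbour of *H2BC14*, with 244 bases between the genes. Such H2A and H2B pairs in opposite orientation are common in the clusters, and 8 of them lie within 1000 bases of each other among the genes of the table. *H2AC14* had 76.1 and 13.6 CPM in the controls and 26.9, 11.8 and 10.4 CPM in the knockout pools (log2-fold change -1.44, adjusted p = 0.21). Control pool 1 lay far above the other pools, as in *H2BC14*, and without that pool the log2-fold change was 0.29.

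At the other end of the range, *H3C6* (chr6:26224199-26227473, plus strand) was the only tested replication-dependent gene with all knockout pools above both controls. It had 3 and 0 counts in the control libraries and 28, 7 and 17 counts in the knockout libraries, or 0.932 and 0 CPM against 3.61, 1.26 and 2.94 CPM. The controls stood at or under the level of 3 counts, and the adjusted p was 0.175. *H3C6* passed the filter on low counts only through the knockout libraries. Genes with the same pattern among those not tested are named below.

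**Figure D2:**
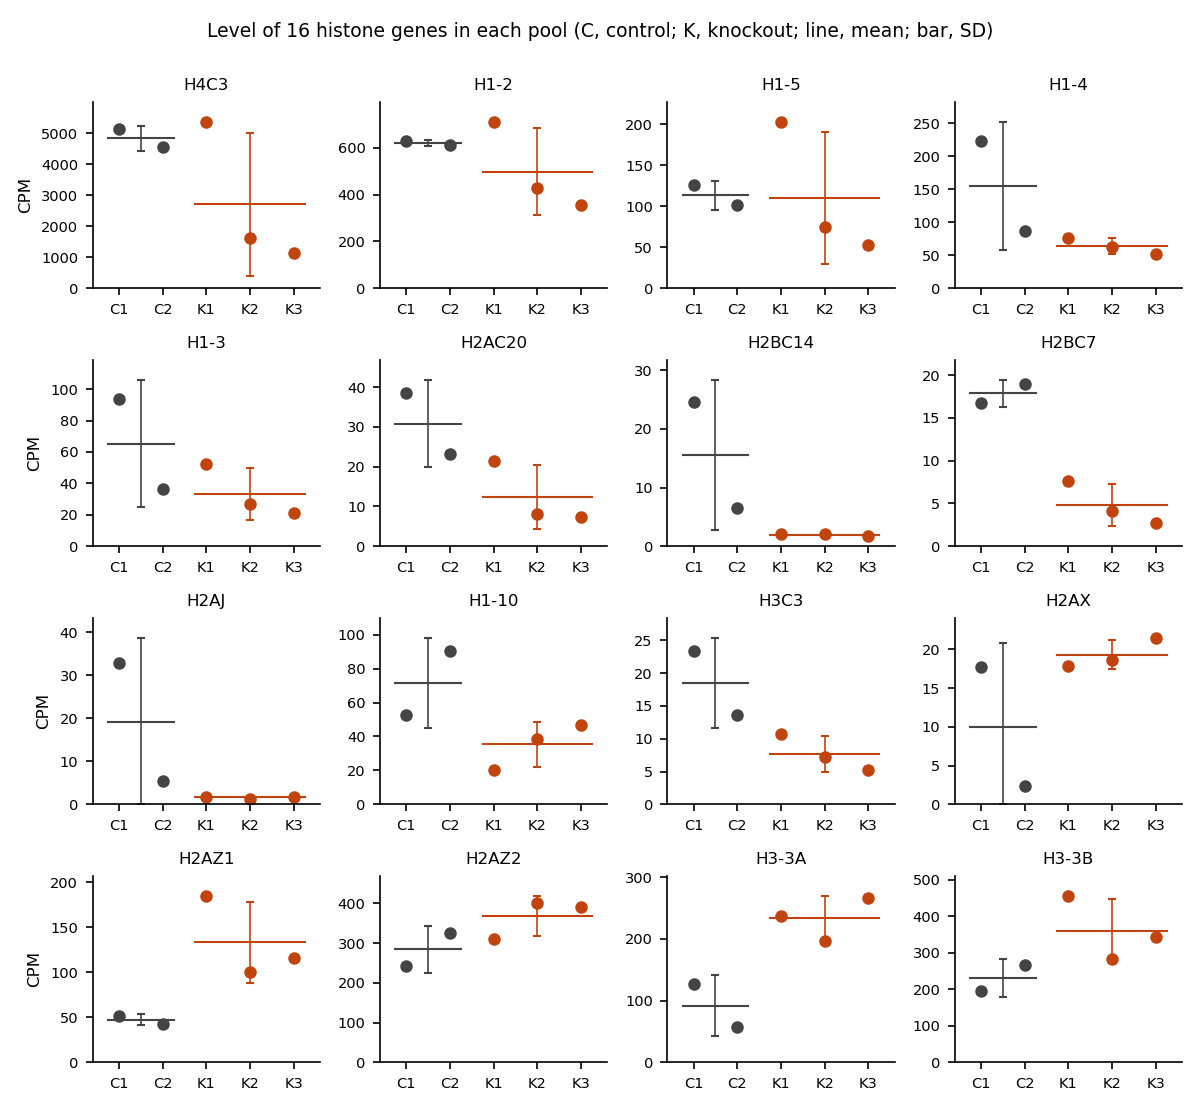
CPM (vertical axis, linear, from 0) of 16 histone genes in control pools 1 and 2 (C1, C2) and in the knockout pools sgMTSS1_1 to sgMTSS1_3 (K1, K2, K3). Points are pools, horizontal lines are group means and vertical bars are SDs, cut off at 0 for *H2AJ* and *H2AX*. After TMM scaling, *H4C3*, *H1-2* and *H1-5* show K1 above both controls and K2 and K3 below them, while *H2BC14*, *H2BC7* and *H2AJ* are low in all 3 knockout pools.

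By family, the 10 tested H2A genes were all negative, with a median log2-fold change of -0.91, and the 4 H1 genes were all negative, with a median of -0.64. Of the 7 H2B genes 5 were negative (median -1.04), and of the 7 H4 genes 6 (median -0.56). The 5 H3 genes had a median of 0.60, with 4 positive, and this turned to -0.16 without control pool 2 and to -0.08 without the sgMTSS1_1 pool. The medians of the other 4 families kept their sign with DESeq2, limma-voom, RLE factors and library size alone, and with each library left out. Control pool 1 weighed on them: without it, the H2A genes had a median of -0.43 with 6 of 10 negative, the H1 genes one of -0.20 with 3 of 4 negative, and the H2B genes one of -0.56. Without the sgMTSS1_1 pool, the medians were -1.37 for H2A, -1.13 for H1, -1.92 for H2B (6 genes tested) and -1.40 for H4 (4 genes tested). By position, the medians were -0.61 for the 18 tested genes of chr6:26026896-26285638, -0.54 for the 12 of chr6:27133043-27872346, and -1.05 for the 3 on chromosome 1. The 17 genes at or above the class's median level had a median of -1.05, with 16 negative, and the 16 below it had a median of -0.25, with 10 negative. Both H2B genes called lower were among the former. The level was the mean CPM over all 5 libraries, so that this grouping draws on the same values as the log2-fold changes.

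The 3 knockout pools did not behave alike. Against the mean of the controls, the median log2 ratio over the 33 replication-dependent genes, with 0.5 CPM added, was -0.14 in the sgMTSS1_1 pool, -1.17 in the sgMTSS1_2 pool and -1.09 in the sgMTSS1_3 pool. The sgMTSS1_1 pool lay below both controls in 10 of the 33 genes and above both in 10, beside 35% and 36.9% of all genes. The sgMTSS1_2 pool lay below both in 26 and above both in 1, beside 30.6% and 32.3% of all genes. For the sgMTSS1_3 pool these were 20 and 2 genes, beside 32.6% and 33.7%. The variant genes went the other way, with median log2 ratios of 0.12, 0.50 and 0.46 in the same order of pools. With 1 library for each sgRNA, the differences between knockout pools have no replicate check and were not tested.

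**Figure D3:**
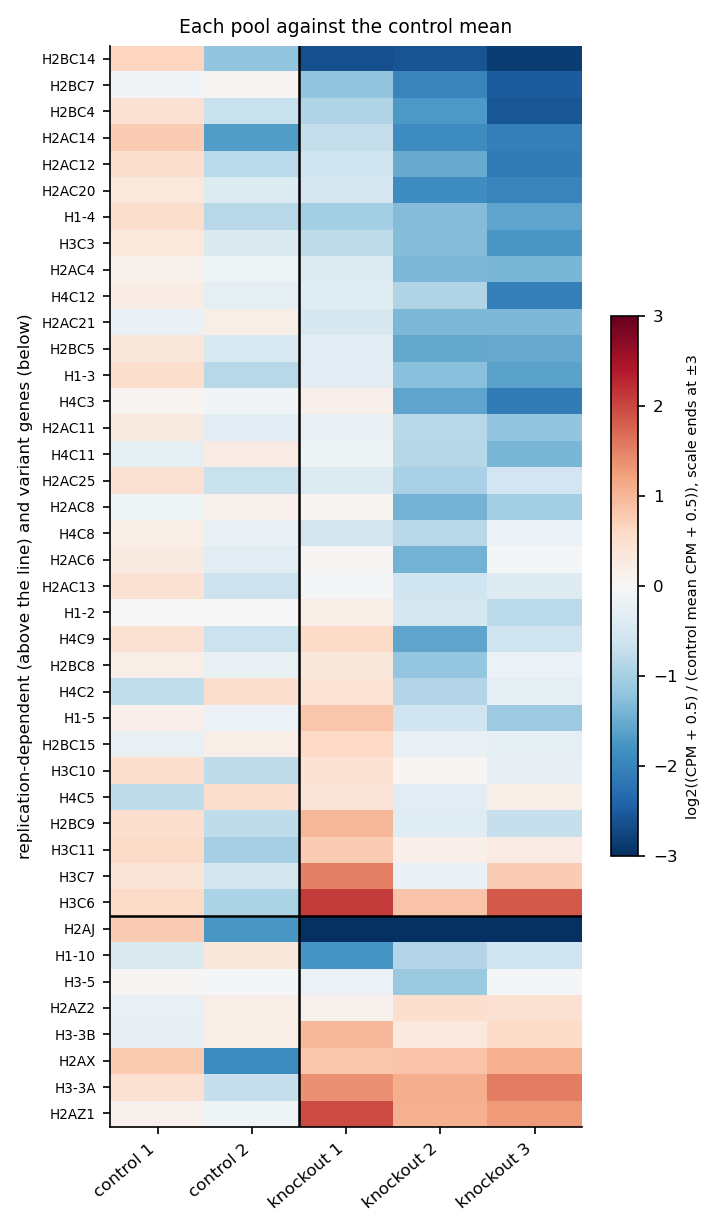
Log2 ratio of the CPM of each pool to the mean of the control pools, with 0.5 CPM added (color, from blue for lower to red for higher, ending at -3 and 3), for 41 of the tested histone genes (rows) and the 5 pools (columns). Replication-dependent genes lie above the horizontal line and variant genes below it. The sgMTSS1_2 and sgMTSS1_3 columns (knockout 2 and 3) are mostly blue above the line, with medians of -1.17 and -1.09, and the sgMTSS1_1 column (knockout 1) is mixed.

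As a share of all counts, replication-dependent genes took 0.744% and 0.554% in the controls (95% Wilson intervals 0.734 to 0.754% and 0.546 to 0.562%), 0.583% in the sgMTSS1_1 pool (0.578 to 0.588%), 0.237% in the sgMTSS1_2 pool (0.233 to 0.241%) and 0.173% in the sgMTSS1_3 pool (0.170 to 0.177%). These intervals cover counting error only. *H4C3* alone took 0.578% and 0.45% in the controls and 0.469%, 0.164% and 0.113% in the knockout pools. Without it, the class took 0.165% and 0.103% against 0.113%, 0.0729% and 0.06%. The sgMTSS1_1 pool thus lay between the controls for the class with and without *H4C3*, and the other two lay below both. Scaled with TMM factors, the summed level of the class was 6088 ± 703 CPM in the controls (SD, n = 2) and 3569 ± 2684 CPM in the knockout pools (n = 3), and the ranges of the 2 groups overlapped. With this scaling, the sgMTSS1_1 pool lay above both controls (6650 CPM, against 6585 and 5591 CPM).

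RNAs that like these lack a poly(A) tail were set beside them. Of 31 such RNAs listed by name, 7 could be tested, with a median log2-fold change of -0.57, 0 higher and 1 lower in edgeR, beside 4.17% and 1.01% of all genes (0 higher and 2 lower at an unadjusted p under 0.05 and in DESeq2). The called RNA was *SNORD3A*, the U3 small nucleolar RNA of ribosomal RNA processing, with 203 and 83.5 CPM in the controls and 46.4, 29.2 and 11.4 CPM in the knockout pools (log2-fold change -2.30, SE 0.55, adjusted p = 0.0439). Its call was lost when control pool 1 or any 1 knockout pool was left out (adjusted p of 0.0793 to 0.119), and the value was -1.51 without control pool 1. All 435 snRNA, snoRNA and scaRNA genes of the table, a set chosen after values were seen, took 0.603% and 0.315% of the counts in the controls and 0.212%, 0.142% and 0.123% in the knockout pools. *RNU4ATAC*, the U4atac RNA of the minor spliceosome, held 12941 of 17197 and 7025 of 10725 of these counts in the controls. In the knockout pools it held 11103 of 18807, 4099 of 7753 and 3321 of 7124. Without *RNU4ATAC*, the set took 0.149% and 0.109% against 0.087%, 0.0671% and 0.0656%. With and without it, the sgMTSS1_1 pool, too, lay below both controls. Of the set, 95 genes were tested, 3 were higher (3.16%, beside 4.17% of all genes) and 8 lower (8.42%, beside 1.01%), and their median was -0.43. Mitochondrially encoded genes took 13.9% and 8.63% of the counts in the controls and 6.71 to 7.44% in the knockout pools, and genes of ribosomal proteins 7.55% and 9.3% against 11.9 to 17.7%. What part the capture of RNAs without a poly(A) tail had in the levels of the replication-dependent genes was not tested.

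**Figure D4:**
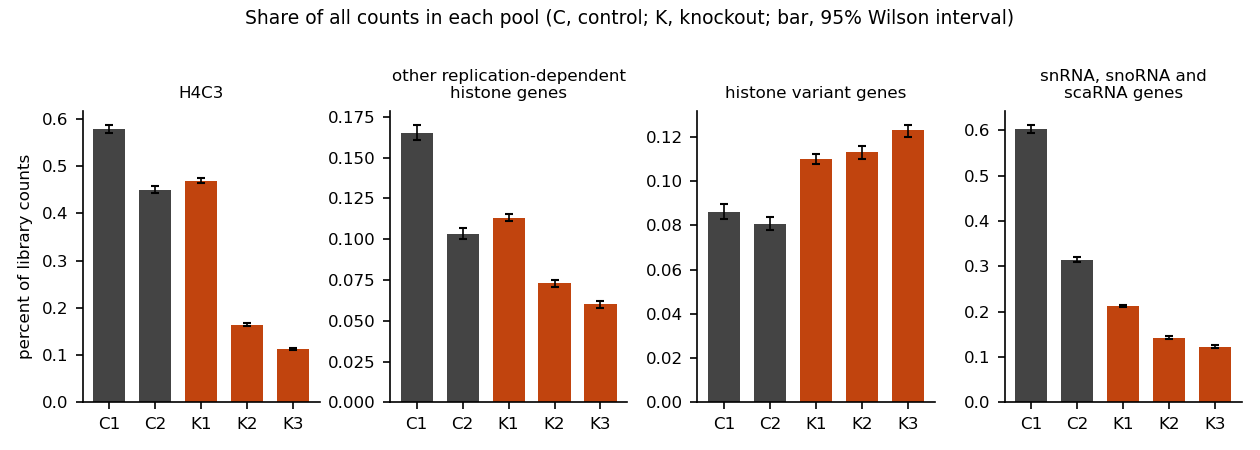
Percent of all counts of a library (vertical axes, from 0, differing between panels) taken by *H4C3*, by the other 56 replication-dependent histone genes, by the 10 histone variant genes and by 435 snRNA, snoRNA and scaRNA genes. Each bar is 1 pool (C1 and C2 control; K1, K2 and K3 sgMTSS1_1 to sgMTSS1_3), and error bars are 95% Wilson intervals of the counting error. K2 and K3 lie below both controls in the panels of the replication-dependent genes and of the snRNA, snoRNA and scaRNA genes and above both in that of the variants, and K1 lies between the controls in the panels of the replication-dependent genes.

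Variant genes took 0.0861% and 0.0808% of all counts in the controls, against 0.11%, 0.113% and 0.123% in the knockout pools, with each knockout pool above both controls. Their summed level was 789 ± 38.2 CPM in the controls (SD, n = 2) and 1196 ± 81.1 CPM in the knockout pools (n = 3). Unlike the replication-dependent genes, all 3 knockout pools took part in this difference, and so they did in the summed levels of the H2A.Z and of the H3.3 genes.

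*H2AZ1*, 1 of the 2 genes of the variant H2A.Z, which is placed at promoters and enhancers (chr4:99948086-99950355, minus strand), rose in the knockout. Its level was 51.6 and 43 CPM in the controls, against 184, 99.8 and 116 CPM in the knockout pools. Every knockout pool lay above both controls, and the sgMTSS1_1 pool was the highest (47.3 ± 6.10 CPM, SD, n = 2, against 133 ± 44.9, n = 3). The log2-fold change was 1.5 (SE 0.36, adjusted p = 0.0447), and the gene overlaps an annotated RNA gene on the other strand. The call was lost when any 1 knockout pool or control pool 2 was left out, and with library size alone as scaling. *H2AZ2*, the second gene of H2A.Z (chr7:44826791-44848087, minus strand), had 243 and 326 CPM against 310, 402 and 391 CPM, with overlapping groups (log2-fold change 0.37, SE 0.31, adjusted p = 0.521). Summed over both genes, H2A.Z had 332 ± 52.3 CPM in the controls and 501 ± 5.57 CPM in the knockout pools.

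H3.3 is the H3 variant that is placed in chromatin outside replication, and it is encoded by *H3-3A* and *H3-3B*, which give the same protein. *H3-3A* (chr1:226061851-226072019, plus strand) had 127 and 56.6 CPM in the controls and 238, 196 and 267 CPM in the knockout pools. No knockout pool overlapped the controls (log2-fold change 1.35, SE 0.39), and the adjusted p was 0.0786 in edgeR and 0.0158 in DESeq2. Without control pool 1 the log2-fold change was 2.06 (adjusted p = 0.0157), and without control pool 2 it was 0.91 (adjusted p = 0.143). Of the 50-base words of its canonical transcript, 72.7% occur in other annotated genes too, so that its counts may miss reads that were not unique. How many reads were missed was not tested. *H3-3B* (chr17:75776434-75785893, minus strand) had 195 and 267 CPM against 455, 284 and 343 CPM, again without overlap (log2-fold change 0.64, SE 0.34, adjusted p = 0.288). The sum of both was 323 ± 1.41 CPM in the controls and 594 ± 107 CPM in the knockout pools.

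*H2AJ*, an H2A variant gene (chr12:14774405-14778002, plus strand), fell in the knockout. It had 32.9 and 5.33 CPM in the control pools and 1.80, 1.26 and 1.73 CPM in the knockout pools. With 14, 7 and 10 counts in the knockout libraries, the gene passed the filter on low counts only through the controls. As for *H2BC14*, the knockout pools were alike and the controls were far apart (19.1 ± 19.5 CPM, SD, n = 2, against 1.60 ± 0.297, n = 3). The log2-fold change was -3.55 (SE 0.68, adjusted p = 0.022). Without control pool 1 it was -1.70 and past the threshold no longer (adjusted p = 0.117), and limma-voom gave an adjusted p of 0.0664. The call was also lost when any 1 knockout pool was left out (adjusted p of 0.067 to 0.104).

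*H2AX*, whose protein is phosphorylated at DNA breaks (chr11:119093874-119095465, minus strand), gives both a stem-loop and a polyadenylated mRNA. It had 17.7 and 2.37 CPM in the controls and 17.9, 18.7 and 21.4 CPM in the knockout pools (log2-fold change 0.95, SE 0.62, adjusted p = 0.397). Control pool 2 alone was low, and without control pool 1 the log2-fold change was 3.03 (adjusted p = 0.0134). Its value thus rests on which control is used.

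*H1-10*, a variant gene of the linker histone (chr3:129314771-129316286, minus strand), had 52.5 and 90.1 CPM against 20.5, 38.8 and 46.7 CPM, with every knockout pool below both controls (log2-fold change -1.02, SE 0.40, adjusted p = 0.165). *H3-5*, an H3 variant gene (chr12:31791185-31792298, minus strand), stayed at 0.718 to 2.18 CPM in all libraries (log2-fold change -0.45, SE 0.64, adjusted p = 0.72). Of 2 tested variants whose symbols lie outside the rule, *MACROH2A1*, the gene of macroH2A, had 794 and 704 CPM in the controls and 408 to 476 CPM in the knockout pools (log2-fold change -0.77, SE 0.30, adjusted p = 0.159). *CENPA*, the gene of the H3 variant of centromeres, had 16.8 and 8.30 CPM against 18.8 to 19.2 CPM (log2-fold change 0.60, SE 0.38, adjusted p = 0.381).

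The 25 histone genes that were not tested, 24 replication-dependent and *H2BC12L*, had at most 29 counts in any library, in *H2BC6*. Summed, the 24 replication-dependent ones had 29.8 and 11.3 CPM in the controls and 24.1, 12 and 13.8 CPM in the knockout pools. The knockout pools lay between the controls, and with no filter on low counts the median of all 57 replication-dependent genes was -0.17. Among the untested replication-dependent genes, *H2BC11*, *H2BC12*, *H3C1*, *H3C8* and *H4C16* lay above both controls in every knockout pool, at low counts. *H2BC1* and *H2BC10* lay below both in every knockout pool, also at low counts. More of the untested genes thus lay above than below, unlike the tested genes.

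The factors that make histone mRNA were then examined. All 20 listed genes of histone transcription and 3′ end processing were tested, with 2 higher and 0 lower in edgeR, DESeq2 and limma-voom (2 and 1 at an unadjusted p under 0.05) and a median log2-fold change of 0.02. The 2 higher genes are 10% of the list, beside 4.17% of all genes in edgeR and 7.08% in DESeq2. *SLBP* had 41.9 and 24.9 CPM in the controls and 49.0, 34.8 and 32.2 CPM in the knockout pools (log2-fold change 0.21, SE 0.35, adjusted p = 0.763). *NPAT*, the coactivator of histone transcription, had a log2-fold change of 0.13 (adjusted p = 0.85), and *CASP8AP2*, which takes part in histone gene expression and processing, of -0.23 (adjusted p = 0.726). In these 3 genes the groups overlapped, and the sign changed when 1 control pool was left out.

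The 2 called genes, *SNRPF* and *SNRPG*, encode Sm proteins shared by the U7 snRNP and the spliceosomal snRNPs. *SNRPF* had 46.6 and 31.1 CPM in the controls and 410, 240 and 250 CPM in the knockout pools (log2-fold change 2.95, SE 0.40, adjusted p = 0.00885). *SNRPG* had 10.9 and 18.1 CPM against 696, 202 and 236 CPM (log2-fold change 4.70, SE 0.66, adjusted p = 0.00986). Both were highest in the sgMTSS1_1 pool, as was the share of counts of ribosomal protein genes (17.7%, against 11.9% and 13.9% in the sgMTSS1_2 and sgMTSS1_3 pools). With 1 library for each sgRNA, this order of pools was not tested. Of 12 genes of histone mRNA decay, 0 were called in edgeR, DESeq2 or limma-voom (1 higher and 0 lower at an unadjusted p under 0.05), and their median was -0.20.

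Of 29 tested histone chaperones and assembly factors, 0 were higher and 2 lower in edgeR, DESeq2 and limma-voom (3 and 4 at an unadjusted p under 0.05), with a median of -0.01. Over all genes, 4.17% were higher and 1.01% lower in edgeR, and 7.08% and 2.35% in DESeq2. *RBBP4*, a histone-binding subunit of the chromatin assembly factor CAF-1 and of several other complexes, had 226 and 249 CPM in the controls and 72.4, 93.1 and 72.4 CPM in the knockout pools (log2-fold change -1.58, SE 0.28, adjusted p = 0.0186). *SET*, a chaperone and inhibitor of histone acetylation, had 1369 and 1377 CPM against 374, 559 and 402 CPM (log2-fold change -1.63, SE 0.33, adjusted p = 0.0259). In both genes the controls were nearly equal and the 3 knockout pools were low. Their calls were lost when any 1 knockout pool was left out (adjusted p of 0.0548 to 0.0987 for *RBBP4* and of 0.0691 to 0.16 for *SET*).

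Of 22 tested S phase genes, 2 were higher and 0 lower in edgeR (4 and 2 at an unadjusted p under 0.05), with a median of 0.08. *RRM1*, a subunit of ribonucleotide reductase, had 97.9 and 52.4 CPM in the controls and 359, 304 and 288 CPM in the knockout pools (log2-fold change 2.08, SE 0.37, adjusted p = 0.0182). *FEN1*, the flap endonuclease of lagging strand synthesis, had 25.2 and 9.78 CPM against 162, 77.9 and 108 CPM (log2-fold change 2.73, SE 0.49, adjusted p = 0.0192). Without the sgMTSS1_1 pool the calls of both were lost (adjusted p of 0.0665 and 0.0733), and so was that of *RRM1* without the sgMTSS1_3 pool. *PCNA*, the sliding clamp of DNA polymerases, had 96.0 and 42.1 CPM against 137, 64.6 and 78.0 CPM, with overlapping groups (log2-fold change 0.44, SE 0.44, adjusted p = 0.599). DESeq2 also called *MCM5*, a subunit of the replicative helicase, lower, with 122 and 138 CPM in the controls and 51.2, 78.6 and 66.6 CPM in the knockout pools (edgeR log2-fold change -0.99, adjusted p = 0.0844). In edgeR, 2 of the 22 S phase genes were thus higher and 0 lower, beside 4.17% and 1.01% of all genes. In DESeq2, 2 were higher and 1 lower, beside 7.08% and 2.35% of all genes.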

How the data were processed

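RNA-seq of 5 TF-1 libraries, 2 control and 3 *MTSS1* knockout, was used. The authors deposited raw counts per Ensembl gene, without normalization. Per the labels and the study's methods, QuantSeq 3′ FWD libraries were trimmed with BBDuk, checked with FastQC 0.11.9 and aligned to GRCh38 with HISAT2 2.1.0, and reads that did not map uniquely were removed with SAMtools 1.10. Removing such reads lowers the counts of near-identical histone genes. The counting program, annotation release and use of strand are not given in the sources used here.

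Counts were fitted in R 4.3.3 with edgeR 4.0.16 (filterByExpr, minimum count 10; TMM; condition alone; all 5 libraries), which left 14391 of 27328 genes. SEs follow from each fold change and its F statistic. The common biological coefficient of variation was 32.2%. Symbols and positions come from GENCODE release 44, which names 27211 genes of the table. Stem-loops were read from GRCh38 after the stop codon of the canonical transcript. Shared 50-base words were those of a histone gene's canonical transcript found in any transcript of another annotated gene, on either strand, overlapping genes included. Alternatives were DESeq2 1.42.0, limma-voom (limma 3.58.1), other scaling, other filters, thinning to the smallest library, a block for the pool number, and each library left out. Summaries and figures used Python 3.11.15, matplotlib 3.10.9 and pandas 2.3.3.

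The members and lists were chosen with earlier results of these data known, so that no test was made over a list. Genes named are those past both thresholds, the tested variants, the 6 replication-dependent genes with the highest mean CPM, those without overlap of the groups that had the 6 largest falls and the 3 largest rises (1 rise had no overlap), and *SLBP*, *NPAT*, *CASP8AP2*, *MACROH2A1*, *CENPA* and *PCNA*. *H2AC11*, *H2BC5*, *H2BC6*, *H4C11*, *H4C12*, *MCM5*, *RNU4ATAC* and the markers printed were named after their values were seen. So were *H2AC4*, *H2BC1*, *H2BC10*, *H2BC11*, *H2BC12*, *H3C1*, *H3C8* and *H4C16*. Single values of 1 tested histone gene and of 1 marker are not reported here.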

Additional observations from a re-analysis of the deposited data

How the results depend on the processing

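The call threshold depended on the tool and on single libraries, for all genes as for histone genes. Of all genes, 600 were higher and 145 lower. DESeq2 gave 1019 and 338, no filter on low counts gave 1173 higher, library size alone gave 230 lower and moved the median of all genes from -0.03 to -0.17, and thinning to the smallest library gave 66 lower. With 1 library left out, 107 to 910 genes were higher and 4 to 430 lower. Replication-dependent genes called lower were 2, against 0 after thinning and 0 to 4 with 1 library left out. Variant genes called higher were 1, against 2 with DESeq2 and with no filter, 0 with library size alone and after thinning, and 0 to 3 with 1 library left out. Variant genes called lower were 1, against 0 with limma-voom and 0 to 1 with 1 library left out. With at least 10 counts in every library they were 0, where *H2AJ* could not be tested. With 1 library left out, the median of the replication-dependent genes ranged from -1.43 to -0.29 (over all members that could be tested in each fit) and that of the variants from 0.15 to 0.60. Signs turned for *H1-5* (0.11 with no filter, 0.037 with at least 10 counts in every library, -0.83 to 0.33 with 1 library left out), *H2AC14* (-2.18 to 0.29), *SLBP* (-0.0885 to 0.65), *NPAT* (-0.0225 with library size alone, -0.22 to 0.66), *CASP8AP2* (-0.58 to 0.29) and *PCNA* (-0.0132 to 1.16). The causes were not tested. Pools numbered 1 and 2 occur in both groups, and nothing says that they were handled together. The deviations from the group means correlated at 0.204 for number 1 and 0.114 for number 2. With the pool number as a replicate block, 1 replication-dependent gene was lower (*H2BC14*), 2 variants were higher (*H2AZ1*, *H3-3A*), 2 were lower (*H2AJ*, *H1-10*), and *H1-5* had 0.13. With 2 controls, their spread is poorly known, and the lowest genes rest on a few counts.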
